A study of Camellia sinensis with 12 samples.

Results

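A set of 103 annotated tea genes stood high in leaves of Kucha-6 (K6) and lower in the other 3 genotypes of the series, out of 33932 annotated genes (0.304%). They were selected on the measured values themselves, which are FPKM (fragments of a gene scaled to its length and to the number of mapped fragments in the library). For each gene the mean of log2(FPKM + 1) was taken over the 3 libraries of each genotype. A gene was kept where the K6 mean exceeded the highest of the other 3 genotype means by at least 1.5 and each of the 3 K6 libraries exceeded all 9 others. This difference is called the margin below. Because the rule used these values, the height of K6 over the other genotypes is a description and was not tested.

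The series holds 12 leaf libraries, with 3 from each of K6, Kucha-11 (K11), Yinghong 9 (YH9) and Qingxin 1 (QX1). K6 and K11 are Kucha genotypes, YH9 and QX1 are conventional varieties, and all were grown in the same germplasm bank without treatment. The labels leave it unsaid whether replicates are different plants. The p-values therefore rest on differences among libraries that may be technical only. In whole leaves, fewer cells of a type and less RNA per cell cannot be told apart.

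Kucha is a bitter tea whose leaves store theacrine, a purine alkaloid that the plant makes from caffeine. Caffeine itself is built by stepwise methylation of xanthine compounds by a family of N-methyltransferases. The series set Kucha against conventional varieties that differ strongly from it in theacrine. The rule compares K6 with each other genotype and does not ask whether K11 is like the conventional varieties. The files pair none of the identifiers with gene names, and 0 of them were found in the reference table of 80110 tea genes. No function or sequence is therefore given for any of the 103 genes, and the leaf label could not be checked against marker genes. Positions of the 103 genes were not used.

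The summed FPKM of the K6 libraries lay within the range of the others. Over all 42704 features it lay between 629355 and 633153 in K6, and between 609588 and 653908 in the other 9 libraries. The number of features listed at 0 was 9778 to 10923 for K6, 10028 to 10365 for K11, 7691 to 9061 for YH9 and 9685 to 10425 for QX1. YH9 thus listed the fewest features at 0, and K6 replicate 2, with 10923, the most. Relative depth, estimated from the steps between low values, was also highest in YH9. Against K6 replicate 2 it was 2.83 times in YH9 replicate 1, 1.49 times in replicate 2 and 1.625 times in replicate 3. The step of YH9 replicate 1 rests on the fewest ratios, 28 where 8.38 were expected, so its estimate is the least certain. The other libraries lay at 0.565 to 1.28 times. For K11 replicate 3, the lowest of these, the step may be a multiple of the true one.

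The margin of the 103 genes had a median of 1.90 and reached 4.32 on the log2(FPKM + 1) scale. It lay from 1.5 to under 2 in 61 genes, from 2 to under 2.5 in 24, from 2.5 to under 3 in 12, and at 3 or above in 6. In 97 genes at least 1 other genotype had a mean above 0, and there the K6 mean FPKM was a median of 6.33 times the highest other mean, with 2.80 times as the lowest. Another 3 annotated genes reached the margin and were left out because their K6 libraries overlapped the rest. These 3, named after their values were seen, had values in K6 replicates 1, 2 and 3 of 8.47, 0 and 5.93 FPKM (TEA028679.1), 15.27, 0 and 2.81 FPKM (TEA029279.1), and 23.37, 0 and 0 FPKM (TEA022288.1). Each of them was listed at 0 in K6 replicate 2.

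**Figure D1:**
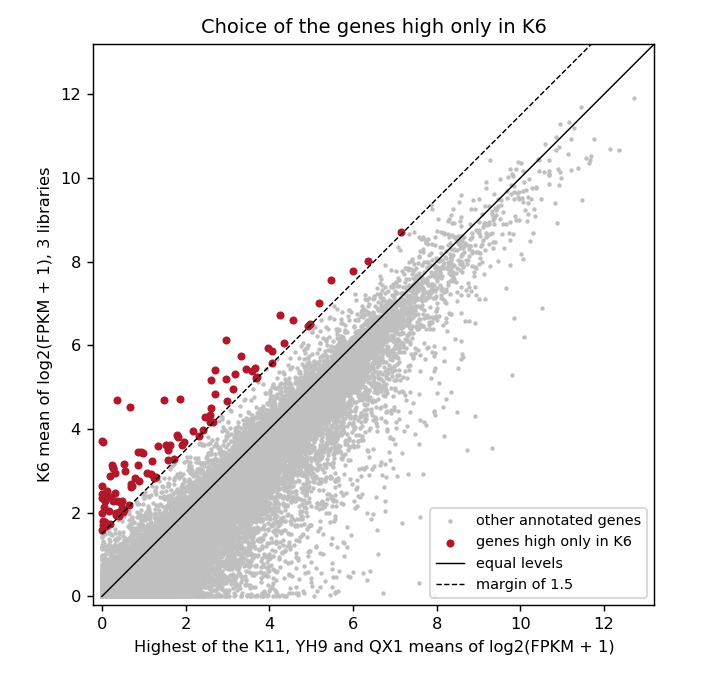
Mean of log2(FPKM + 1) in K6 (vertical axis, 3 libraries) against the highest of the K11, YH9 and QX1 means (horizontal axis), 1 point per annotated gene. The 103 genes high only in K6 are red and lie on or above the dashed line, which marks the margin of 1.5; the solid line marks equal levels, and the grey points above the dashed line are the 3 genes with overlapping libraries.

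The genes nearest the threshold on either side had close margins and very different levels. TEA004775.1, with the smallest margin of the set at 1.51, stood at 12.79, 22.31 and 16.69 FPKM in K6. It stood at 1.22, 0.69 and 0.92 FPKM in K11, at 8.25, 3.8 and 4.52 FPKM in YH9, and at 0.11, 0 and 0.04 FPKM in QX1. The next gene inside, TEA022163.1, had low values, with 2.36, 3.60 and 2.54 FPKM in K6 against 0 to 0.57 FPKM in the other 9 libraries. Just outside, TEA028204.1 came closest to the threshold, at 33.65, 61.71 and 35.33 FPKM in K6. Its other values were 0.36, 0.17 and 0.16 FPKM in K11, 11.1, 16.47 and 15.54 FPKM in YH9, and 11.08, 9.74 and 9.95 FPKM in QX1. TEA010314.1 was the next gene outside, although it was more abundant in K6 than any gene of the set. It stood at 721.09, 616.18 and 636.49 FPKM in K6 and at 139.16, 217.65 and 411.47 FPKM in QX1, so that its QX1 libraries spread widely below K6. In K11 it had 26.42, 49.63 and 16.8 FPKM and in YH9 6.8, 4.25 and 18.75 FPKM.

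The genes covered a wide range of abundance in K6, from a mean of 2.17 to 417 FPKM with a median of 9.77. The quartiles were 4.37 and 26.6 FPKM. In K6, 50 genes averaged at least 10 FPKM, 14 at least 50 FPKM and 6 at least 100 FPKM. The median over the 20410 annotated genes with a K6 mean of at least 1 FPKM was 8.57 FPKM. That group starts lower than the set, whose lowest mean was 2.17 FPKM, so the medians rest on unlike floors. In the other genotypes the median gene of the set had a mean of 0.760 FPKM in K11, 0.597 FPKM in YH9 and 0.663 FPKM in QX1. Together the 103 genes made up 0.477% ± 0.041 of the summed FPKM in K6, with SD over 3 libraries. The same share was 0.0714% ± 0.0107 for K11, 0.0844% ± 0.0137 for YH9 and 0.1004% ± 0.0094 for QX1.

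**Figure D2:**
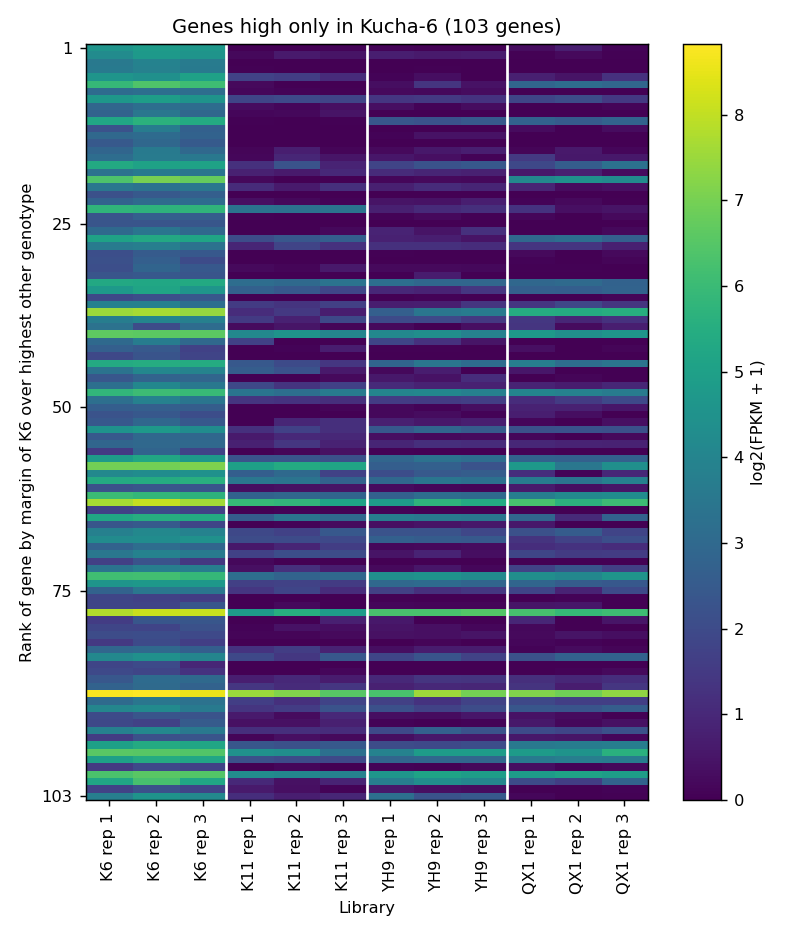
Level of the 103 genes (rows, ordered from the largest margin at the top to the smallest) in the 12 libraries (columns, K6 first), as log2(FPKM + 1) by colour. Dark colours are low values. Rows dark in all 9 other libraries are found from top to bottom, so the margin does not separate near-absent genes from those with a clear level elsewhere.

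Every gene of the set fell into 1 of 3 classes, by its level outside K6 and by the calls among K11, YH9 and QX1. A first class of 41 genes stayed under 1 FPKM in all 9 other libraries. A second class of 34 genes reached at least 1 FPKM in some other library and was not called different among K11, YH9 and QX1. The remaining 28 genes were called different between at least 2 of these 3 genotypes. The K6 mean had a median of 3.95 FPKM in the first class, 11.3 FPKM in the second and 36.1 FPKM in the third. Under the rule a higher level elsewhere requires a higher K6 level, so this order follows in part from the choice of genes and classes. The classes were drawn after the values were known.

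The near-absent class held the largest margins of the set. Its highest value in any other library was 0.94 FPKM, and 6 of its 41 genes were listed at 0 in all 9 other libraries. Among the named genes, TEA009782.1 had the largest margin, 4.32, with 22.77, 27.37 and 24.40 FPKM in K6. It was at 0, 0 and 0.07 FPKM in K11, 0.06, 0.04 and 0.04 FPKM in YH9, and 0.22, 0.67 and 0.06 FPKM in QX1. The K6 libraries were tight and every other library lay below 1 FPKM. TEA033864.1 came next with a margin of 3.86, at 18.06, 26.53 and 22.66 FPKM in K6. The other libraries ran from 0.15 to 0.54 FPKM in K11, from 0.54 to 0.66 FPKM in YH9 and from 0.03 to 0.16 FPKM in QX1. YH9 held a low but even trace of this gene.

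TEA022217.1 was the most abundant gene that the files list at 0 in every library outside K6. It stood at 10.97, 13.99 and 11.72 FPKM in K6, with a mean of 12.2 ± 1.6 (SD, n = 3). TEA026945.1 followed it closely at 11.02, 13.73 and 11.38 FPKM in K6. Its only values above 0 elsewhere were 0.04 FPKM in K11 replicate 1 and 0.03 FPKM in YH9 replicate 2. TEA001395.1, listed at 0 outside K6 as well, was lower at 4.54, 6.74 and 4.66 FPKM in K6. TEA009782.1, TEA033864.1, TEA022217.1 and TEA026945.1 were the 4 genes of the class to average at least 10 FPKM in K6, and the other 37 lay under that level.

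The second class ran from genes that barely reached 1 FPKM in a single library outside K6 to the most abundant gene of the set. TEA011104.1 was the most abundant of the 103, with 426.38, 452.57 and 370.57 FPKM in K6. It had 177.92, 142.49 and 92.37 FPKM in K11, 77.47, 183.73 and 126.27 FPKM in YH9, and 141.35, 119.18 and 163.57 FPKM in QX1. K11, YH9 and QX1 overlapped, with the K6 mean 2.95 times the highest of their means. TEA027319.1 stood at 202.62, 264.32 and 194.33 FPKM in K6, against 58.79, 55.71 and 33.94 FPKM in K11, 27.98, 52.37 and 41.46 FPKM in YH9, and 75.75, 49.40 and 65.81 FPKM in QX1. Its K6 mean was 3.46 times the highest other mean.

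Some genes of this class were very even within K6. TEA004175.1 varied least over the 3 K6 libraries among genes averaging at least 10 FPKM there. It had 98.25, 96.06 and 96.88 FPKM in K6, with an SD of 0.016 on the log2 scale. It lay at 16.43, 22.29 and 15 FPKM in K11, 16.21, 19.40 and 13.79 FPKM in YH9, and 25.90, 19.62 and 23.33 FPKM in QX1, so QX1 was highest of the 3 with a range that overlapped K11. YH9 was lower than QX1 by -0.46 ± 0.15 (SE; limma, adjusted p = 0.0174), under the fold threshold. TEA012544.1 varied much more within K6, with 8.42, 15.83 and 10.71 FPKM. It was at 2.73, 1.51 and 2.23 FPKM in K11, at 1.09, 0.78 and 0.77 FPKM in YH9, and at 0.82, 0.61 and 0.92 FPKM in QX1. Its differences of K11 from YH9 (0.73 ± 0.22 SE, adjusted p = 0.0105) and from QX1 (0.81 ± 0.22 SE, adjusted p = 0.00706) stayed under the fold threshold in limma.

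Over the whole set, the means of the 3 other genotypes spanned a median of 0.46 on the log2(FPKM + 1) scale. The span was under 1 in 75 of the 103 genes. The 41 near-absent genes cannot reach a span of 1, so this count is in part set by the floor. Among the rest, the 34 genes not called spanned under 1 and the 28 called ones at least 1. Of the 97 genes with a single highest genotype after K6, that genotype was QX1 in 42, YH9 in 30 and K11 in 25. Of the 93 genes with a single lowest genotype, it was K11 in 39, QX1 in 31 and YH9 in 23. All 3 libraries were listed at 0 for 15 genes in K11, 9 in YH9 and 14 in QX1. By these counts K11, the other Kucha genotype, was more often the lowest than the next highest. The counts include the 41 near-absent genes, where the rank rests on values under 1 FPKM. The same ranks were not taken over all annotated genes, so nothing is concluded about K11.

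**Figure D3:**
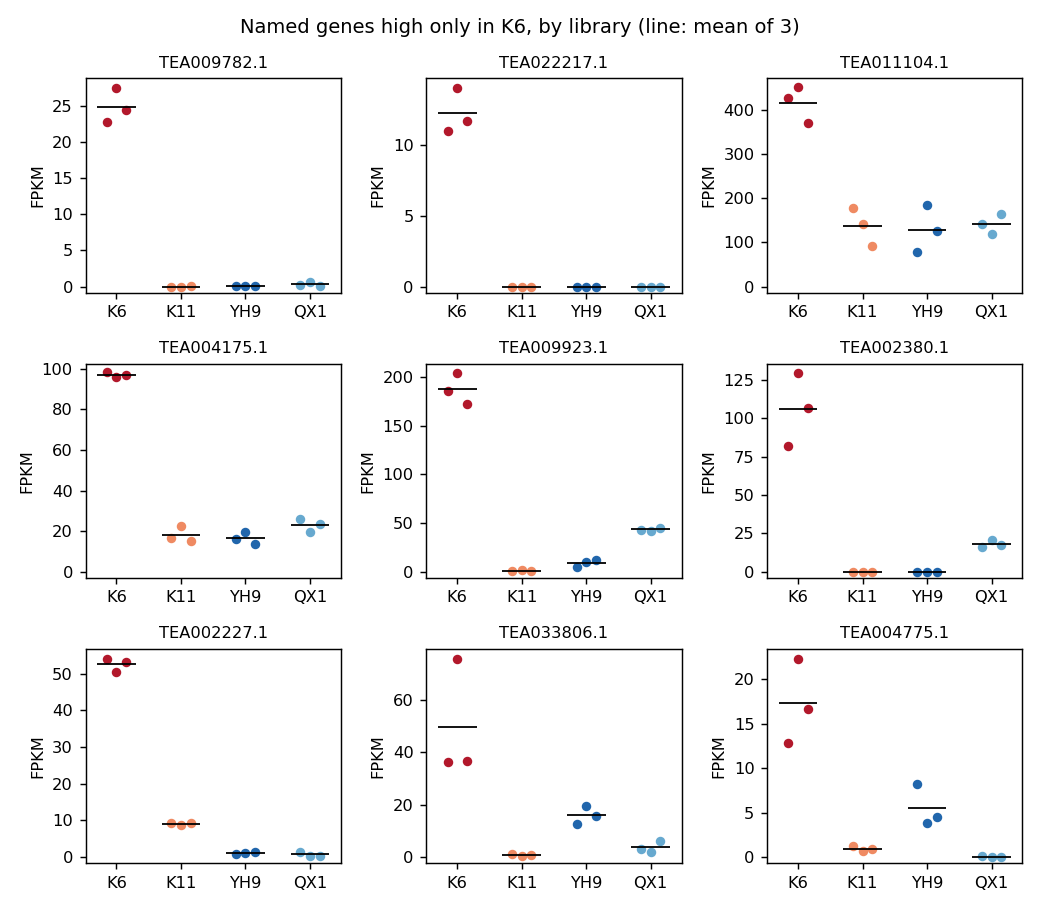
FPKM of 9 named genes in each library, with K6 at the left of each panel; points are libraries and lines are means of 3. The first 2 genes are near 0 outside K6, the next 2 have like levels in the other genotypes, and the other 5 differ among K11, YH9 and QX1.

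Differences among K11, YH9 and QX1 were tested gene by gene. The rule treated these 3 genotypes alike and so favoured neither direction between any of them. It did cap the highest of their means, however, so the values tested are not independent of the choice of genes in their size. The test was limma on log2(FPKM + 1), fitted to the 29364 features that reached 1 FPKM in 3 or more libraries. A gene was called at a Benjamini-Hochberg adjusted p below 0.05 over all these features and a log2 difference of at least 1. Of the 103 genes, 102 entered the test. The gene left out, TEA024599.1, was named after its values were seen: it had 2.59, 2.99 and 0.93 FPKM in K6 and was listed at 0 elsewhere. Without the K6 libraries, 52 of the 103 genes would have passed the filter, so the others entered through K6. A gene under 1 FPKM in all K11, YH9 and QX1 libraries cannot reach a log2 difference of 1 among them, and the 41 near-absent genes contributed 0 calls. The number of calls in the set is therefore limited by how its genes were chosen and filtered, and nothing is read from its distance to the share among all features, which is given as background.

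In K11 against YH9, 7 of the 102 tested genes were higher and 10 lower in K11. These are 6.86% and 9.80%, beside 10.3% higher and 13.5% lower among all tested features. The median difference was -0.03 over the set and -0.07 over all tested features. All tested features include unannotated loci, while the set holds annotated genes only. Of the 22782 annotated genes tested, 9.35% were higher and 11.9% lower in K11. In K11 against QX1, 4 genes were higher and 13 lower in K11, or 3.92% and 12.7%, beside 10.6% and 8.62% among all tested features. The median was -0.06 over the set against 0.08 over all tested features. The excess of K11 over QX1 among all features depended on scaling. After quantile normalization 9.44% were higher and 9.55% lower in K11, while the set gave 4 and 15 genes. Of the annotated genes tested, 8.64% were higher and 7.25% lower in K11 without this normalization. The 4 higher genes were TEA002227.1, TEA015431.1, TEA029524.1 and TEA031847.1.

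In YH9 against QX1, 5 genes were higher and 10 lower in YH9, or 4.90% and 9.80%, beside 14.6% and 9.24% among all tested features. The higher ones were TEA004775.1, TEA006701.1, TEA009507.1, TEA029524.1 and TEA033806.1. Leaving out QX1 replicate 2 reduced them to 3. Of the annotated genes tested, 12.5% were higher and 8.22% lower in YH9. The median was 0 over the set against 0.17 over all tested features. That excess of YH9 over QX1 among all features depended on scaling: after quantile normalization 11.7% were higher and 11.3% lower in YH9, while the set gave 5 and 11 genes.

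Against the mean of the conventional varieties, K11 was higher in 3 genes and lower in 12. These were 2.94% and 11.8%, beside 8.78% and 8.95% among all tested features. Of the annotated genes tested, 7.38% were higher and 7.37% lower in K11. The 3 higher genes were TEA002227.1, TEA002315.1 and TEA015431.1, and leaving out K11 replicate 3 raised their number to 6. With a pseudocount of 0.1 in place of 1, K11 was higher in 11 genes and lower in 16.

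**Figure D4:**
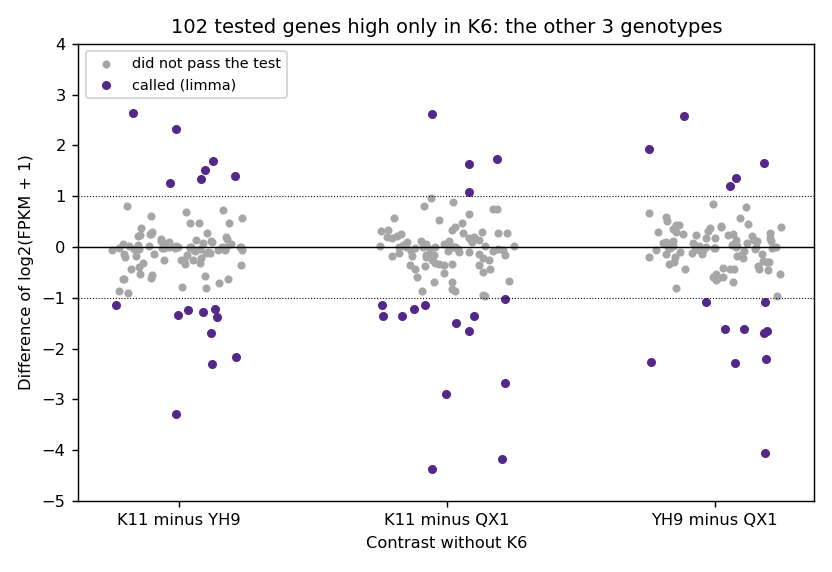
Difference of log2(FPKM + 1) between K11, YH9 and QX1 for each of the 102 tested genes (1 point per gene in each column, spread sideways for legibility). Purple points were called by limma and dotted lines mark the fold threshold of 1; most grey points lie near 0, and the largest differences are negative in K11 minus QX1 and YH9 minus QX1.

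QX1 was above both K11 and YH9 by the test in 6 of the 28 genes that differed. TEA009923.1 was the most abundant of these, with 185.06, 203.36 and 172.50 FPKM in K6. Its other values were 1.16, 1.73 and 0.65 FPKM in K11, 5.34, 10.01 and 11.65 FPKM in YH9, and 43.02, 42.04 and 45.42 FPKM in QX1. No 2 genotypes overlapped in it. K11 was lower than QX1 by -4.38 ± 0.22 (SE; limma, adjusted p = 6.98e-09) and lower than YH9 by -2.17 ± 0.22 (adjusted p = 2.71e-06) on the log2 scale, and YH9 differed from QX1 by -2.21 ± 0.22 (adjusted p = 2.40e-06).

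TEA002380.1 showed QX1 alone at an intermediate level. It stood at 81.83, 129.03 and 106.34 FPKM in K6 and at 16.10, 20.58 and 17.55 FPKM in QX1. In K11 it had 0.14, 0 and 0 FPKM and in YH9 0.12, 0.16 and 0.13 FPKM. The difference from QX1 was -4.18 ± 0.16 in K11 (SE; limma, adjusted p = 4.49e-10) and -4.06 ± 0.16 in YH9 (adjusted p = 4.28e-10). K11 and YH9 were both close to 0 and did not differ beyond their spread.

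YH9 was below both K11 and QX1 by the test in 4 genes, TEA002066.1, TEA002315.1, TEA013726.1 and TEA021442.1. TEA002315.1 had 123.78, 122.61 and 139.08 FPKM in K6. It had 31.37, 40.67 and 35.14 FPKM in K11, 5.29, 5.53 and 3.81 FPKM in YH9, and 26.49, 10.37 and 20.04 FPKM in QX1. K11 exceeded YH9 by 2.65 ± 0.25 (SE; limma, adjusted p = 1.42e-06), the largest such difference in the set.

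K11 was above both YH9 and QX1 by the test in 2 genes, TEA002227.1 and TEA015431.1. TEA002227.1 had 54.18, 50.60 and 53.28 FPKM in K6 and 9.19, 8.70 and 9.40 FPKM in K11. It was lower in the conventional varieties, with 0.71, 1.09 and 1.27 FPKM in YH9 and 1.46, 0.27 and 0.39 FPKM in QX1. K11 exceeded YH9 by 2.33 ± 0.21 (SE; limma, adjusted p = 6.41e-07) and QX1 by 2.63 ± 0.21 (adjusted p = 3.09e-07). The 6 Kucha libraries all lay above the 6 conventional ones in this gene, with K6 5.79 times as high as K11 by the mean. TEA015431.1 was less even, with 9.34, 16 and 14.41 FPKM in K6 and 5.10, 3.72 and 0.51 FPKM in K11. It lay between 0 and 0.63 FPKM in the conventional libraries, so that K11 replicate 3 overlapped YH9.

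K11 was below both YH9 and QX1 by the test in 6 genes. TEA012782.1, the second most abundant gene of the 103, was one of them with 221.44, 278.36 and 270.69 FPKM in K6. It had 26.88, 45.84 and 28.52 FPKM in K11, 78.15, 76.70 and 87.22 FPKM in YH9, and 76.39, 59.36 and 67.26 FPKM in QX1. K11 was lower than YH9 by -1.27 ± 0.17 (SE; limma, adjusted p = 2.89e-05) and lower than QX1 by -1.02 ± 0.17 (adjusted p = 0.000265). The difference from QX1 fell under the fold threshold, to between -0.88 and -0.93, when K11 replicate 1, K11 replicate 3 or QX1 replicate 1 was left out. TEA008190.1 had even values in K6, 41.17, 43.44 and 42.32 FPKM, and 4.34, 2.97 and 1.65 FPKM in K11. It had 6.22, 10.22 and 7.63 FPKM in YH9 and 12.56, 7.93 and 9.57 FPKM in QX1, so all K11 libraries lay below the conventional ones. Its difference of K11 from YH9 was -1.21 ± 0.23 (SE; limma, adjusted p = 0.000591), and -0.95 without K11 replicate 3.

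YH9 was above both K11 and QX1 by the test in 2 genes, TEA033806.1 and TEA004775.1. TEA033806.1 was the least even of the abundant genes within K6, at 36.25, 75.92 and 36.75 FPKM. It had 1.00, 0.33 and 0.85 FPKM in K11, 12.57, 19.53 and 15.62 FPKM in YH9, and 2.95, 2.02 and 6.04 FPKM in QX1. K11 was lower than YH9 by -3.29 ± 0.33 (SE; limma, adjusted p = 2.60e-06), the largest such difference in the set. In TEA004775.1, whose values stand above, YH9 exceeded QX1 by 2.58 ± 0.24 (SE; limma, adjusted p = 1.25e-06). QX1 was below both K11 and YH9 by the test in 1 gene, TEA029524.1, with 16.42, 18.61 and 20.97 FPKM in K6. It had 5.29, 7.11 and 2.32 FPKM in K11, 3.24, 4.53 and 5.05 FPKM in YH9, and 1.22, 0.06 and 0.96 FPKM in QX1.

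The 3 K6 libraries did not carry the set equally. K6 replicate 2 held the highest K6 value in 75 of the 103 genes (72.8%), replicate 3 in 17 and replicate 1 in 11. Among the 22782 annotated genes that passed the filter, replicate 2 was the highest in 34.9%, replicate 3 in 29.4% and replicate 1 in 35.7%. The lean to replicate 2 remained after trimmed-mean scaling, with 72 genes, and after quantile normalization, with 71. Among the annotated genes that the same rule picks in each of the other genotypes, the share of the leading library was at most 39.2% in the values as deposited, 40.9% after trimmed-mean scaling and 41.0% after quantile normalization. Relative to the mean of the 3 K6 libraries, the median gene of the set deviated by -0.12 in replicate 1, 0.17 in replicate 2 and -0.03 in replicate 3 on the log2 scale. The SD over the K6 libraries had a median of 0.21 in the set, against 0.15 in the annotated genes with a K6 mean of at least 1 FPKM. A high value in 1 library raises the K6 mean that the rule used, so these figures are a description. Without K6 replicate 2 the rule gave 100 genes, of which 82 were among the 103. What sets replicate 2 apart was not tested.

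**Figure D5:**
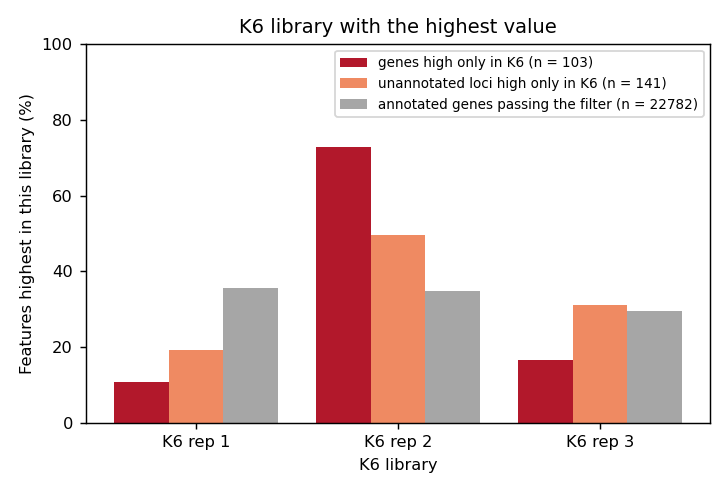
Percentage of features whose highest K6 value is found in each K6 library, for the 103 genes high only in K6, for the 141 unannotated loci that meet the same rule, and for the 22782 annotated genes that passed the filter. Replicate 2 holds 72.8% of the 103 genes and 34.9% of the annotated genes.

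The same rule applied to each of the other genotypes gave more genes. K6 had 103 genes (0.304% of the annotated genes), against 252 in K11 (0.743%), 505 in YH9 (1.49%) and 186 in QX1 (0.548%). The median margin was alike, at 1.90 for K6, 1.95 for K11, 1.91 for YH9 and 2.02 for QX1. The genes of K6 were the least abundant, with a median of 9.77 FPKM in their own genotype, against 15.01 FPKM in K11, 19.4 FPKM in YH9 and 12.8 FPKM in QX1. Genes listed at 0 in all 9 libraries of the other genotypes numbered 6 for K6, 4 for K11, 3 for YH9 and 9 for QX1. These counts were not tested against each other.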

How the data were processed

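Leaf RNA of 4 tea genotypes was sequenced in 12 libraries. The authors deposited 1 table of FPKM values per library, per the file headers, with 2 decimals. Bowtie2 2.2.8 and TopHat2 2.1.1 are named in the submitters' processing notes. The FPKM program, genome build and annotation were not given in the sources used. Ribosomal RNA was removed and dUTP used in the second strand, per the labels' protocols, a text that also mentions retinas, which no other label does. Counts were not among the values, so the absolute depth is unknown.

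Groups were taken from the sample titles. Replicates had identical values in at most 1.32% of features above 0, so no library was counted as a copy. The rule was applied to log2(FPKM + 1). Differences were tested with limma 3.58.1 in R 4.3.3 (trended, robust prior, a mean per genotype over 12 libraries), which was checked on simulated data. Fold changes on log2(FPKM + 1) understate changes of low genes. The genes chosen by a naming rule have the largest margin, the highest K6 level, zeros elsewhere, the largest called differences, values at the threshold or extreme K6 spread. Others fall outside this naming rule. They are those marked as such and TEA002066.1, TEA006701.1, TEA009507.1, TEA013726.1, TEA015431.1, TEA021442.1, TEA029524.1 and TEA031847.1, which complete lists of called genes. The members, classes and lists were chosen with earlier results of these data known. Alternatives were other pseudocounts, filters, scalings, margins, a replicate block, fits on the genotypes compared and leaving out each library.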

Additional observations from a re-analysis of the deposited data

How the results depend on the processing

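The number of genes high only in K6 depends on the pseudocount and the margin: it was 309 with a pseudocount of 0.1, 268 with a margin of 1 and 42 with a margin of 2, in place of 103. Quantile normalization gave 110 genes (100 of them among the 103) and trimmed-mean scaling 108 (102 among the 103). Leaving out each library gave 98 to 116. With the pseudocount of 0.1, the calls among the set numbered 14 higher and 18 lower in K11 against YH9, 14 higher and 19 lower in K11 against QX1, 17 higher and 17 lower in YH9 against QX1, and 11 higher and 16 lower in K11 against the conventional mean. The shares among all tested features were larger with it too, at 13.4% higher and 17.1% lower, 14.4% and 11.5%, 19.1% and 11.8%, and 12.8% and 13.6% in the same order. With a filter of 5 FPKM, 67 genes of the set were tested and the counts were as before, so its shares became larger (10.4% higher and 14.9% lower in K11 against YH9, beside 10.3% and 13.22% of all features). This pseudocount gives more weight to values near 0, where depth limits the precision. Leaving out each library gave 7 to 8 higher and 9 to 11 lower in K11 against YH9, 3 to 6 higher and 11 to 15 lower in K11 against QX1, 3 to 5 higher and 9 to 10 lower in YH9 against QX1, and 3 to 6 higher and 10 to 13 lower in K11 against the conventional mean. The replicate numbers did not pair the libraries: deviations of same-numbered libraries correlated between -0.103 and 0.056 over 18 pairs, and with the replicate number as a block the counts in K11 against YH9 were again 7 higher and 10 lower. Of 342 recomputed tests of genes chosen by the naming rule, 338 kept their direction and call. The other 4 kept the direction but fell under the fold threshold, as given above for TEA012782.1 and TEA008190.1. The cause was not tested.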

Other observations

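The same pattern was also found among unannotated loci. The rule picked 141 of the 8772 unannotated loci (1.61%) for K6, on 128 scaffolds, with a median margin of 1.98 and a median K6 mean of 6.42 FPKM. It picked 240 loci for K11, 337 for YH9 and 167 for QX1, so K6 had the fewest, as among annotated genes. Of the K6 loci, 26 were listed at 0 in all 9 other libraries. XLOC_065237 had the largest margin, 4.26, with 19.61, 18.46 and 22.89 FPKM in K6 and at most 0.24 FPKM elsewhere. Its place in the deposited tables is scaffold 844, minus strand, 4494208 to 4497701 (genome build not given in the sources used here). XLOC_061888 followed with 27.87, 29.94 and 33.19 FPKM in K6 and at most 0.91 FPKM elsewhere, on the plus strand of scaffold 740, from 1755432 to 1756929. K6 replicate 2 held the highest K6 value in 70 of the 141 loci (49.6%). Among the 240 loci picked for K11, replicate 3 held the highest value in 55% in the values as deposited. This share was 45.4% after trimmed-mean scaling and 47.9% after quantile normalization. These shares were not taken over all unannotated loci, so no lean to 1 library is concluded for the picked loci. Among the annotated genes picked for K11, replicate 3 held the highest value in 34.5% as deposited. It did so in 38.7% of the annotated genes that passed the filter. Positions of annotated genes were not used here, so the distance between these loci and the 103 genes is not known.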
